A study of Mus musculus with 12 samples.

Results

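SOX and forkhead genes encode 2 families of DNA-binding transcription factors, and 38 of them had at least 1 accessible region in chromatin of NIH/3T3 cells, an immortal line of mouse embryonic fibroblasts. They were chosen by symbol alone (Sox followed by a number, or Fox followed by a letter from a to s and a number) from 12338 named genes, which gave 10 SOX and 28 forkhead genes, all protein coding. For each gene the region whose centre lay closest to the listed gene start was taken as its start site region. Its other listed regions, 25 in all for 19 of the genes, were kept apart, so that 63 of the 81995 regions belonged to these genes. The assay was ATAC-seq, which reads out where the Tn5 transposase can reach and cut the DNA. There were 4 groups with 3 libraries each. WT cells carry intact Actg1, the gene of cytoplasmic gamma-actin. In PTC1 cells 1 nt is inserted after position 280 of Actg1, so that a stop codon comes too early, in exon 3. In PTC2 cells 4036 nt are inserted after position 1096 and the early stop lies in exon 5. LD cells have lost the whole Actg1 locus. All alleles were made with CRISPR-Cas9 in the same cell line, to ask what decay of the mutant mRNA contributes to transcriptional adaptation. The labels name no separate clones of an allele, so each allele stands for 1 line and p-values measure the spread between libraries, which may be technical.

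SOX factors bind the minor groove of DNA through an HMG box and bend it, and groups named B to G share sequence and roles: SOXB1 in neural and pluripotent cells, SOXC in differentiating neurons and mesenchyme, SOXD and SOXE in cartilage, neural crest and glia, and SOXF in endothelium. Forkhead factors bind through a winged helix. Among them FOXA proteins open closed chromatin, FOXC, FOXD, FOXF and FOXL1 act in mesenchyme, FOXO proteins carry the insulin signal, and FOXM1 drives genes of cell division. In fibroblasts the mesenchymal forkhead genes and Sox4 and Sox9 are commonly active, while Sox2, Sox10 and Foxa2 mark other lineages.

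The tables give read counts scaled by 1 factor per library, called normalised read counts here. They summed to 31.3 to 34.8 M per library, and estimated reads in regions ran from 25.03 to 45.0 M, with 36.0 M or more in each PTC2 library and 33.5 M or less in each LD library. Whether that difference in depth plays a part in the results was not tested. Libraries of a group correlated across regions with Pearson's r of 0.982 to 0.987 and libraries of different groups with 0.817 to 0.933. No region overlapped Actg1 (chr11:120345687-120348495), and the nearest regions lay 47.6 kb and 21.2 kb away, so the alleles could not be checked at their own locus. A change is a difference of group means of log2(value + 1), in the sense mutant minus WT, tested with limma over 81985 regions. A region is called higher or lower at a Benjamini-Hochberg adjusted p under 0.05. Since whole stretches of chromosome shifted in some lines, changes are also given relative to the median change of the 100 nearest regions, leaving out those within 10 kb. For genes other than the 38 that value is given where it differs by more than 1.5 times.

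The bases just before the start of 6 of the genes are shown because these windows overlap the start site regions whose values follow. The Foxa1 window lies only partly in its region, and its forkhead core match lies outside it. They are the 250 bases before the RefSeq start in GRCm38.p6, read 5′ to 3′ on the strand of the gene. Sox2 (chr3:34649745-34649994, plus strand) opened in 1 line, Sox11 (chr12:27342719-27342968, minus strand) closed in that line, and Sox8 (chr17:25570687-25570936, minus strand) changed in opposite directions between lines. Foxd2 (chr4:114908899-114909148, minus strand) fell in 2 lines, Foxa1 (chr12:57546112-57546361, minus strand) rose in LD, and Foxo1 (chr3:52268087-52268336, plus strand) was not called in any line. Capitals mark matches, on either strand, to motifs that are spelled out after the sequences: GC and CCAAT boxes and the forkhead core.
Sox2: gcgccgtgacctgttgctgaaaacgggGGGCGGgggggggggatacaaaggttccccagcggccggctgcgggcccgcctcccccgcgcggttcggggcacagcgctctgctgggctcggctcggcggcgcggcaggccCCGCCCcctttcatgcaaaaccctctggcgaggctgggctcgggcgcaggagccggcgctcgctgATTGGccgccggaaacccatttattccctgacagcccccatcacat
Sox11: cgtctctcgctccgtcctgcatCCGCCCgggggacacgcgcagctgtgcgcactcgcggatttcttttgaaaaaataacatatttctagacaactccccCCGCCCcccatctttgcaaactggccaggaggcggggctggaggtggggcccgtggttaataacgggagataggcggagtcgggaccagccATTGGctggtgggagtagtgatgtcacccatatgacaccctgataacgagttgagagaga
Sox8: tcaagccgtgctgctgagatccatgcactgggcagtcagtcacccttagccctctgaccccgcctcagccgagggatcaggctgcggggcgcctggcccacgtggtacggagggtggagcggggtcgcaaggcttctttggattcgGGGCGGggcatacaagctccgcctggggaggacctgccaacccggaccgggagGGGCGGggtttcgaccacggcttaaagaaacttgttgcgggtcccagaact
Foxd2: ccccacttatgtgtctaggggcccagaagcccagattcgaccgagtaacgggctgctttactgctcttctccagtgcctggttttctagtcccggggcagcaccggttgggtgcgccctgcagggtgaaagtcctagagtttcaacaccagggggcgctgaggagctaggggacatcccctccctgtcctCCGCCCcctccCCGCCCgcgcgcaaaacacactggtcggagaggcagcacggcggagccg
Foxa1: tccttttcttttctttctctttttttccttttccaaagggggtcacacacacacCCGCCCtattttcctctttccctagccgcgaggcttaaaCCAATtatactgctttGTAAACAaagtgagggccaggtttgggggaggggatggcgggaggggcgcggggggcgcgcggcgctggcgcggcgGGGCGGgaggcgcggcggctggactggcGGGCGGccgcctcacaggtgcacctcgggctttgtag
Foxo1: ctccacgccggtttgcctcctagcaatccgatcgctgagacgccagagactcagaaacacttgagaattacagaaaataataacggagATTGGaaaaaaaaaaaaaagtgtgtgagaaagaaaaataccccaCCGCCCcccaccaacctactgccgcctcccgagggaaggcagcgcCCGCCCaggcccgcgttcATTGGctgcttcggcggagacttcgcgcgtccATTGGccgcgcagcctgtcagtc
RefSeq windows were held for 23 of the 38 genes, and 15 windows of 15 genes overlapped the gene's start site region. Of these 15, a GC box (the letters GGGCGG) was found in 14, with Sox4 the exception, against 32.7% of all 32851 windows of this length and 64.2% of the 8376 windows that overlap a start site region of any gene. A CCAAT box was found in 8, against 33.8% and 36.6%. The forkhead core searched for was TGTTTAC, which 1 window held, that of Foxa1, against 3.17% and 2.08%. The SOX core ATTGTT was in 0 of the 15 windows, against 9.42% of all windows and 4.50% of those in start site regions. A TATA box, spelled as TATAAA, was likewise in 0, against 12.4% and 5.61%. The AP-1 site searched for was TGANTCA, again in 0 windows, against 6.75% and 4.44%. The ratio of observed to expected CpG had a median of 0.833 and ran from 0.520 in Foxp1 to 1.28 in Foxk2, beside a median of 0.758 over all windows in start site regions and 0.374 over all windows. By its letters the SOX core can overlap the forkhead core or the CCAAT box, and none of the others can contain another. These matches describe the letters in the windows and do not show binding.

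Start site regions of SOX and forkhead genes were a little wider than those of other genes and held about the same counts. Their median width was 1411 bp against 1085 bp over all named genes, and the median of their mean counts was 940 against 1001. The centre lay within 1000 bp of the start in 25 of 38 (65.8%) against 81.5% of all genes, and 19 of 38 (50.0%) had 2 or more regions against 26.4%. In the other 13 the centre lay 1338 to 5579 bp away, inside the gene for Foxa1, Foxm1, Foxn1, Foxn4, Sox6 and Sox10 and outside it for Foxa2, Foxb2, Foxd3, Foxl1, Sox7, Sox15 and Sox18, and none of these 13 regions covers the listed start. Mean counts reached 1000 or more in 17 genes and stayed under 100 in 6. The 6 with low counts were Sox7, Sox10, Sox15, Foxa2, Foxb2 and Foxd3. Among the 32 with a mean of 100 or more, the coefficient of variation within a group had a median of 6.08%, against 5.32% over all genes, and was highest for Sox2 in PTC2, at 27.1%.

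In PTC1, 14 of the 38 start site regions were higher than in WT and 11 lower. Over all named genes 33.3% were higher and 28.5% lower, so the shares of 36.8% and 28.9% lay near the background. Changes of 1 or more on the log2 scale were called in 5 of the 38, against 10.4% of all genes. In PTC2, 19 were higher and 8 lower, against 37.4% and 16.3% of all genes, and 2 changes reached 1, against 7.76%. In LD, 12 were higher and 10 lower, against 16.9% and 29.5%, and 2 changes reached 1, against 5.71%. The share called higher was 50.0% in PTC2 and 31.6% in LD, above both backgrounds, and no test of that difference was made. The median size of change was 0.27 in PTC1, 0.34 in PTC2 and 0.31 in LD, against 0.25, 0.21 and 0.19 over all start site regions. Relative to the nearest regions, 7 rather than 14 rose in PTC1, against 23.3% of all genes, and 6 rather than 10 fell in LD, against 28.2%. The count of higher starts relative to the nearest regions went from 19 to 14 in PTC2 and stayed at 12 in LD. The share over all genes was not computed for these 2 counts.

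The SOX and forkhead genes differed in how far the lines shared a change. Foxc2, Foxd1, Foxf1, Foxj1 and Foxm1 rose in all 3 lines (13.2% of the 38, against 4.18% of all genes). Foxk1, Foxn4, Sox7 and Sox18 fell in all 3 (10.5%, against 3.87%). When set against the nearest regions, Foxj1, Foxn3 and Sox2 were called higher in all 3 (7.89%, against 2.66%). Foxp4, Sox7 and Sox18 were called lower in all 3 (7.89%, against 3.15%). Only Foxj1 of the 5 and Sox7 and Sox18 of the 4 thus kept all their calls. Without that centring, Sox2 was called in PTC1 only, Foxn3 in PTC2 and LD only, and Foxp4 in LD only. A further 8 genes were called in opposite directions in different lines (21.1%, against 23.4%), and 9 were called in exactly 1 line (23.7%, against 31.6%). Foxo1, Sox10 and Sox15 were called in none (7.89%, against 12.8%). The 3 comparisons share the WT libraries, so agreement between them is not independent. The map of changes by gene sets the deposited values beside the values relative to the nearest regions.

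**Figure D1:**
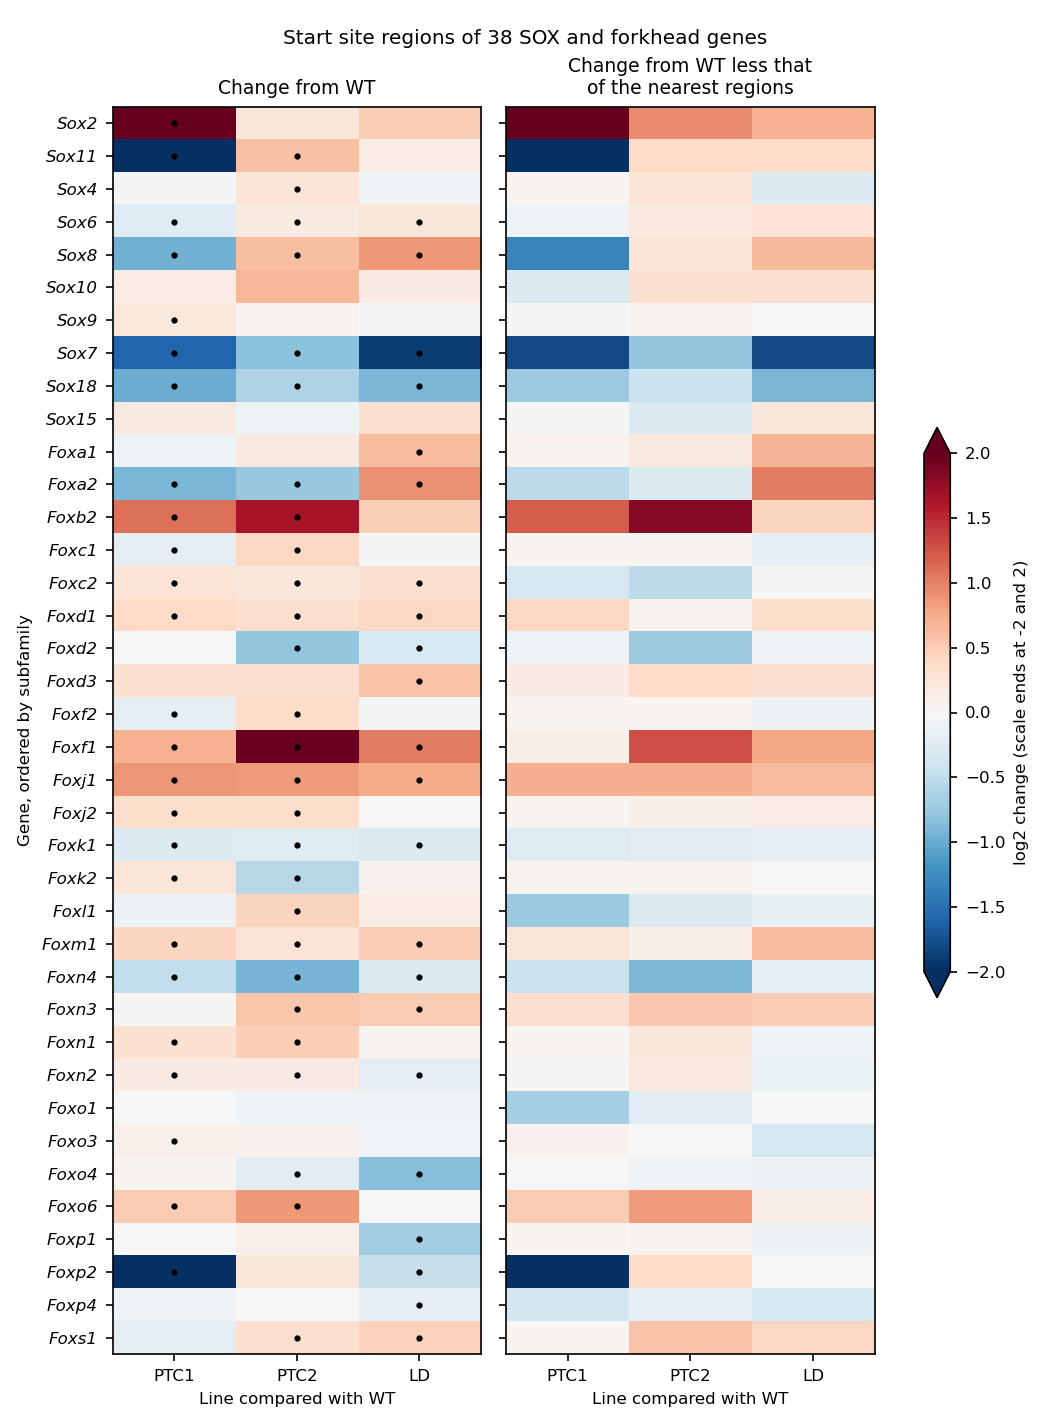
Log2 change from WT of the start site regions of 38 SOX and forkhead genes (rows, SOX first, then forkhead, ordered by subfamily) in PTC1, PTC2 and LD (columns), as fitted on the left and less the median change of the 100 nearest regions on the right. Red is higher and blue lower, the colours end at -2 and 2, and black dots mark called changes on the left; Sox2, Sox11 and Foxp2 stand out in PTC1 on both sides, while Foxo4 and Foxp1 in LD and Foxk2 in PTC2 fade on the right.

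Sox2, the SOXB1 factor of pluripotent and neural progenitor cells, opened in PTC1 only as far as called changes go, and by the largest change of the 38 genes. Its start site region (chr3:34649614-34651366) covers the transcription start. It held 21, 29 and 19 normalised read counts in the WT libraries and 982, 986 and 1107 in PTC1. In PTC2 the values were 35, 28 and 20 and in LD 29, 38 and 30. All PTC1 libraries lay far above the other 9, which overlapped one another. The change in PTC1 was 5.44 ± 0.21 (SE, adjusted p = 5.1e-19), and 4.75 relative to the nearest regions. In PTC2 it was 0.24 (adjusted p = 0.33) and in LD 0.49 (adjusted p = 0.058), with no call. The direct difference between PTC1 and PTC2 was 5.19 (adjusted p = 9.9e-19).

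Both other regions of Sox2 followed in PTC1. The region at chr3:34653362-34653624 held means of 4.67 ± 3.06 in WT and 101 ± 35.5 in PTC1 (SD, n = 3), a change of 4.26. The region at chr3:34654935-34655273 held 7.33 ± 3.21 and 136 ± 9.24, a change of 4.11. In PTC2 this last region fell, from 6, 11 and 5 in WT to 4, 0 and 1. That fall of 1.89 rested on very low counts and was not called without WT replicate 2 (-1.59) or without PTC2 replicate 2 (-1.33).

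The chromatin around Sox2 moved as a wide block. Of the 27 regions between 10 and 400 kb from the start, 18 were higher and 1 lower in PTC1, with a median change of 1.06. In PTC2, 0 were higher and 26 lower, with a median of -2.09, and in LD 0 were higher and 23 lower, with a median of -1.42. The fall was deepest on the side of higher coordinates, which lies downstream of the gene, where all 12 regions fell in both lines with medians of -3.05 and -3.31. The start site region did not share this fall, and relative to its neighbours it stood 0.95 higher in PTC2 and 0.69 higher in LD. Whether a change in DNA copy number in any line plays a part was not tested.

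Sox11 and Sox4 are the SOXC factors of differentiating neurons and mesenchymal progenitors. At the Sox11 start (chr12:27341968-27343492) the WT libraries held 847, 855 and 770 counts. The PTC1 libraries held 147, 116 and 132, the PTC2 libraries 1240, 1252 and 1203, and the LD libraries 945, 904 and 886. PTC1 lay below and PTC2 above every other library, and LD lay just above WT. Accessibility fell by 2.64 ± 0.08 in PTC1 (adjusted p = 5.6e-21) and rose by 0.58 ± 0.08 in PTC2 (adjusted p = 8.2e-07), while the change of 0.15 in LD was not called. The regions around it went the other way in PTC1: of 16 regions between 10 and 400 kb away, 13 were higher and 1 lower, with a median change of 1.15, and in PTC2 14 were higher and 1 lower. Sox4 kept to a narrow range, with means of 2072 ± 34.6 in WT, 2035 ± 69.6 in PTC1 and 1955 ± 93.4 in LD, and 2486 ± 139 in PTC2. Of these changes only the rise of 0.26 in PTC2 was called. A region upstream of Sox4 (chr13:28957887-28959525) fell by 0.44 in PTC1 and rose by 0.33 in PTC2 and 0.27 in LD.

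**Figure D2:**
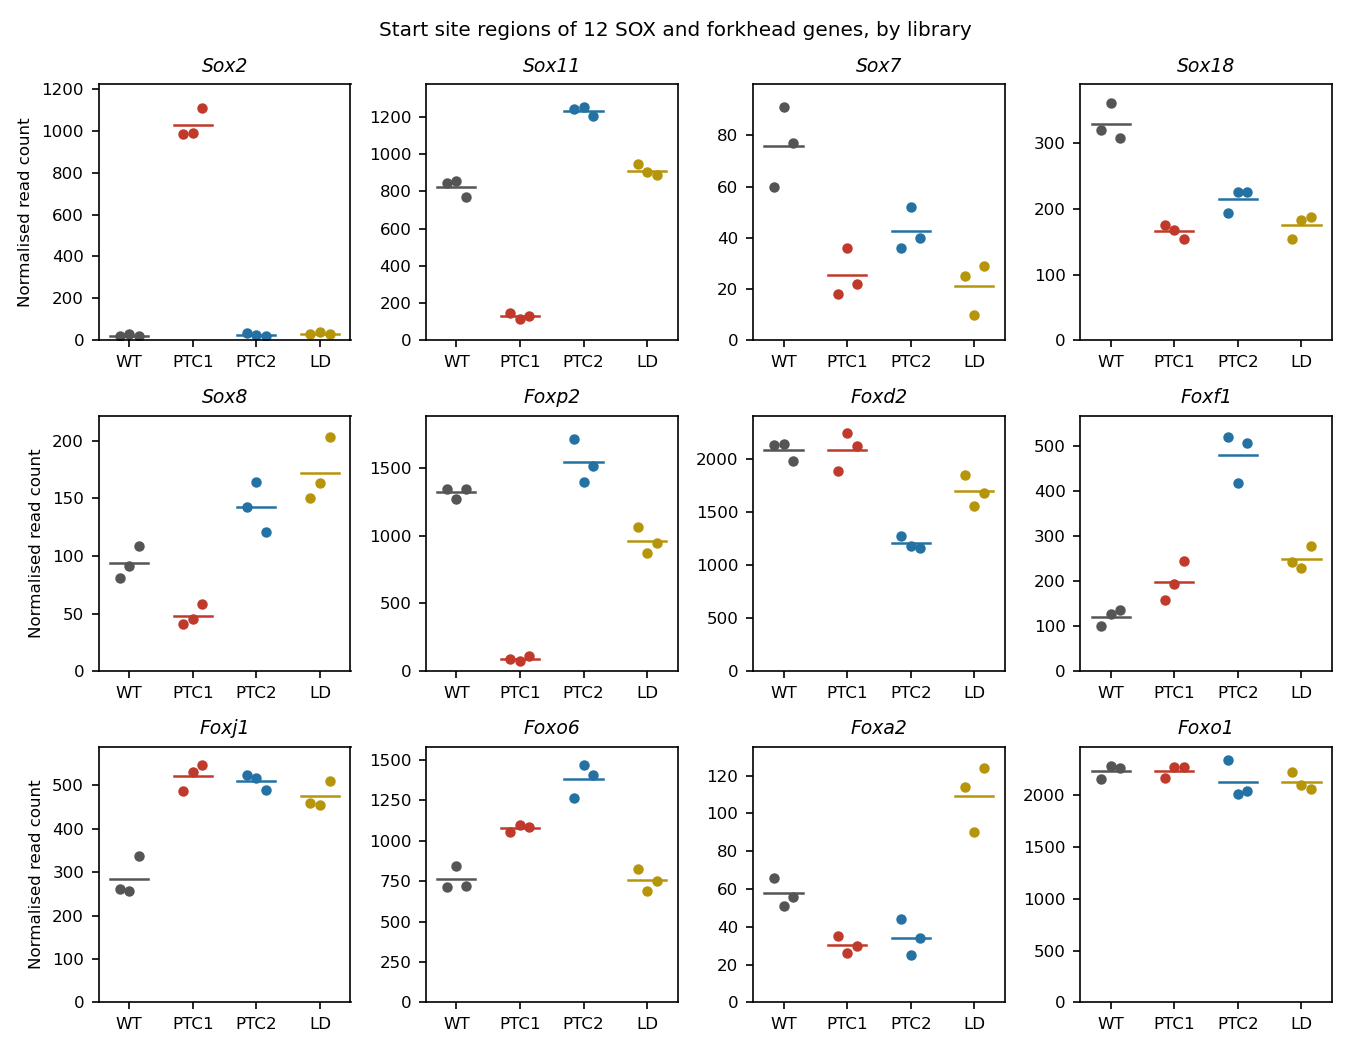
Normalised read count of the start site region in each library for 12 of the genes, with 1 panel per gene, points for the 3 libraries of each group and a line for the group mean; the vertical axes start at 0 and differ between panels. Sox2 is at 982 to 1107 in PTC1 and at 38 or less in every other library, Sox11 and Foxp2 are lowest in PTC1, Foxf1 and Foxo6 highest in PTC2, Foxa2 highest in LD, and Foxo1 has group means between 2129 and 2239.

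Among the SOXE genes, Sox8 changed in opposite directions, Sox9 barely moved and Sox10 stayed near the lower limit of counts. Sox8, which acts beside Sox9 and Sox10 in testis, cartilage and glia, held 81, 91 and 109 counts at its start (chr17:25570464-25571003) in WT and 41, 45 and 58 in PTC1. In PTC2 it held 142, 164 and 121, and in LD 150, 163 and 203. All PTC1 libraries were below WT and all PTC2 and LD libraries above it. The changes were -0.95 ± 0.18 (adjusted p = 2.9e-05), 0.60 ± 0.18 (adjusted p = 0.0047) and 0.87 ± 0.18 (adjusted p = 1.7e-04). Of the 20 regions within 100 kb of Sox8, 15 were higher in PTC1 and 15 in PTC2, and relative to the nearest regions the change was -1.33 in PTC1 and 0.26 in PTC2, the latter with no call. A second region of Sox8, 832 bp wide (chr17:25567732-25568564), rose in all 3 lines, from 91.7 ± 26.0 in WT to 169 ± 13.0, 307 ± 10.8 and 172 ± 29.4.

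Sox9, the master factor of cartilage, held 2119 ± 56.4 counts in WT, 2456 ± 52.0 counts in PTC1, 2228 ± 125 counts in PTC2 and 2062 ± 171 in LD. The rise of 0.21 in PTC1 was called, but 4 of the 7 regions within 100 kb were also higher there, and relative to the nearest regions the change was -0.04. Sox10, the factor of neural crest and glia, had means of 35.0 to 52.3 counts and no call. Sox6, a SOXD factor that works with Sox9 in cartilage, went from 1443 ± 107 in WT to 1202 ± 36.5 in PTC1, 1639 ± 159 in PTC2 and 1692 ± 53.1 in LD. It fell by 0.26 in PTC1 (0.09, with no call, relative to the nearest regions) and rose by 0.18 in PTC2 and 0.23 in LD. The PTC2 rise was not called without WT replicate 1 (0.18), WT replicate 2 (0.13) or PTC2 replicate 1 (0.10), nor the LD rise without WT replicate 2 (0.18). Sox15, the SOXG gene, which acts in regenerating skeletal muscle, had means of 85.3 to 112 counts and no call.

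The regions nearest the starts of the SOXF genes of endothelium, Sox7 and Sox18, fell in all 3 lines. Both lie outside the gene, with the centre 2692 bp from the start of Sox7 and 2002 bp from that of Sox18, and no region listed for either gene covers its start. In the Sox18 region (chr2:181673416-181673868) WT held 320, 360 and 308 counts, PTC1 176, 167 and 154, PTC2 193, 226 and 225, and LD 154, 183 and 188. Every WT library lay above every mutant library. The falls were 0.99, 0.62 and 0.91 (each ± 0.12) and remained called relative to the nearest regions, at -0.73, -0.43 and -0.91. In the Sox7 region (chr14:63940793-63941168) WT held 60, 91 and 77, PTC1 18, 36 and 22, PTC2 36, 52 and 40, and LD 25, 10 and 29. WT was again above all mutant libraries, at low counts. The falls were 1.59, 0.81 and 1.89 (each ± 0.32). In PTC2 the Sox7 call was lost without WT replicate 2 (-0.68), WT replicate 3 (-0.80), PTC2 replicate 1 (-0.70) or PTC2 replicate 3 (-0.78). A second region of Sox18 (chr2:181675520-181675887) fell in PTC1 alone among called changes, from 346 ± 27.5 to 169 ± 6.81. Of 9 endothelial marker genes 6 had a region, with summed counts of 1576 to 1661 in WT, 1254 to 1292 in PTC1, 1905 to 2167 in PTC2 and 1966 to 2207 in LD, and Pecam1, Tie1 and Emcn had none. The markers did not move together. In PTC1 3 rose and 1 fell (Erg by 0.76, or 1.15 relative to the nearest regions, and Flt1 by -2.15), in PTC2 1 rose and 2 fell (Erg by 1.06 and Tek by -1.20), and in LD 3 rose and 1 fell. The part of these markers in the result was not tested.

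Among the forkhead genes, the FOXA pioneer factors of endoderm and the FOXB gene Foxb2 had low to middling counts. Foxa1 (chr12:57544923-57546233) held 421, 342 and 360 counts in WT and 636, 559 and 545 in LD, where every library lay above WT. It rose by 0.63 ± 0.10 in LD (adjusted p = 4.1e-06), and its changes of -0.10 in PTC1 and 0.18 in PTC2 were not called. Foxa2 (chr2:148048416-148048949) held 66, 51 and 56 counts in WT, 35, 26 and 30 in PTC1, 44, 25 and 34 in PTC2 and 114, 90 and 124 in LD. Both premature stop lines were below WT and LD above it, with changes of -0.91, -0.76 and 0.91 (each ± 0.23). The PTC2 call was lost without PTC2 replicate 2 (-0.56), and relative to the nearest regions the 2 falls were -0.52 and -0.28, with no call, while the rise in LD was 1.02. Foxb2 (chr19:16868545-16868912) rose from 24.0 ± 6.08 in WT to 51.7 ± 3.06 in PTC1 and to 76.0 ± 1.00 in PTC2, changes of 1.10 and 1.65, and its 34.0 ± 9.54 in LD overlapped WT. Epithelial markers were listed for 5 of 10 genes, with Cdh1, Epcam, Esrp1, Grhl2 and Krt18 at no region. Their summed counts ran from 796 to 842 in WT, 820 to 918 in PTC1, 1399 to 1447 in PTC2 and 641 to 670 in LD, and were lowest in LD. In LD Krt5 and Krt8 fell, by 0.81 and 0.37 (-0.23 with no call for Krt8 relative to the nearest regions), while Cldn3 rose by 0.96, and the high sum in PTC2 went with Krt5, which rose from 194 to 930 counts, while 2 markers fell. Their part in the result was not tested.

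The mesenchymal genes Foxf1, Foxc2 and Foxl1 lie within 43.6 kb of one another on chromosome 8. The start site regions of Foxf1 and Foxc2 cover the listed start. That of Foxl1 lies outside the gene, with its centre 2496 bp from the start, and does not cover it. Foxf1, a hedgehog-responsive factor of visceral mesenchyme, held 101, 127 and 136 counts in WT at chr8:121083519-121084479. It held 159, 193 and 245 in PTC1, 519, 417 and 505 in PTC2 and 242, 230 and 277 in LD. Every mutant library was above WT and the PTC2 libraries were above all others. The rises were 0.70, 1.98 and 1.04 (each ± 0.14), with an adjusted p of 5.7e-13 in PTC2. Foxc2, a factor of lymphatic vessels and paraxial mesenchyme, went from 1512 ± 32.3 in WT to 1830 ± 119 in PTC1, 1780 ± 116 in PTC2 and 1889 ± 113 in LD, rises of 0.27, 0.23 and 0.32. Foxl1, a marker of subepithelial gut mesenchyme, had means of 1258 ± 15.6, 1170 ± 235, 1728 ± 180 and 1398 ± 33.2 in the same order, and only the rise of 0.45 in PTC2 was called. In the 100 kb around Foxc2, 10 of 14 regions were higher in PTC1, 10 in PTC2 and 7 in LD. Relative to the nearest regions the Foxf1 rises were 0.12 in PTC1, with no call, 1.28 in PTC2 and 0.77 in LD. The Foxc2 changes turned to -0.34 in PTC1 and -0.52 in PTC2, that in LD was 0.02 with no call, and that of Foxl1 to -0.29 in PTC2.

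Foxf2 and Foxc1, 181 kb apart on chromosome 13, moved alike. Foxf2 held 1515 ± 34.4 counts in WT, 1330 ± 131 in PTC1 and 1473 ± 170 in LD, against 1960 ± 108 in PTC2. Foxc1, a factor of the eye, skull and vessel mesenchyme, held 2138 ± 98.1, 1886 ± 88.2, 2848 ± 220 and 2071 ± 29.6. Both fell in PTC1, by 0.19 and 0.18, and rose in PTC2, by 0.37 and 0.41, and neither was called in LD. The 2 falls were not called without WT replicate 2 (-0.18 for Foxf2 and -0.15 for Foxc1), nor was that of Foxf2 without WT replicate 3 (-0.18) or PTC1 replicate 1 (-0.11). Relative to the nearest regions no call was left, with changes between 0.04 and 0.06 in both lines. A second region of Foxc1 (chr13:31808121-31808511) rose by 0.62 in PTC1, from 172 ± 19.98 to 266 ± 37.5, against the direction at the start.

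The FOXD genes gave the largest contrast between a start and a nearby region. Foxd1, a marker of kidney stroma progenitors, was open at its start (chr13:98353852-98355938) in all groups, with 1022, 1026 and 1054 counts in WT, 1412, 1193 and 1508 in PTC1, 1427, 1271 and 1239 in PTC2 and 1439, 1376 and 1317 in LD. Every mutant library lay above WT, by 0.40, 0.34 and 0.41 (each ± 0.07) on average, and by 0.41, 0.07 and 0.36 relative to the nearest regions, the PTC2 value with no call. A region upstream of it (chr13:98349581-98350369) held 19, 18 and 14 counts in WT. It held 104, 87 and 79 in PTC1, 363, 375 and 387 in PTC2 and 46, 66 and 62 in LD. The 4 groups did not overlap there, and the order from low to high was WT, LD, PTC1 and PTC2. The changes were 2.34, 4.40 and 1.71 (each ± 0.19), with an adjusted p of 8.3e-18 in PTC2, and 2.35, 4.10 and 1.63 relative to the nearest regions. Of the 57 regions between 10 and 400 kb from the Foxd1 start, the highest change was 2.19 in PTC1, 2.68 in PTC2 and 2.53 in LD, so that in LD the upstream region did not stand above all of them. Foxd2 (chr4:114908481-114909803) held 2129, 2144 and 1980 counts in WT, 1889, 2242 and 2119 in PTC1, 1279, 1179 and 1166 in PTC2 and 1849, 1560 and 1680 in LD. PTC2 lay below all other libraries and PTC1 overlapped WT, and the fall was 0.79 ± 0.07 in PTC2 (adjusted p = 3.2e-11) and 0.30 ± 0.07 in LD. Relative to the nearest regions the fall in PTC2 was 0.71, while the LD change was -0.11 with no call. Foxd3, a factor of neural crest and pluripotent cells, had means of 79.0 to 119 counts and rose by 0.58 in LD, 0.34 with no call relative to the nearest regions.

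Foxj1, the master factor of motile cilia, opened in all 3 lines. WT held 262, 256 and 337 counts (chr11:116335240-116336010), PTC1 486, 530 and 547, PTC2 524, 517 and 489, and LD 460, 454 and 511. All mutant libraries lay above WT and overlapped one another. The rises were 0.88, 0.85 and 0.74 (each ± 0.10), and 0.71, 0.72 and 0.63 relative to the nearest regions. Foxj2 rose from 1154 ± 74.5 in WT to 1477 ± 34.6 in PTC1 and to 1466 ± 109 in PTC2, while LD had 1147 ± 134. Those rises of 0.36 and 0.34 were 0.06 and 0.11 relative to the nearest regions, with no call. Foxm1, which drives genes of mitosis, held 430 ± 14.01 counts in WT, while PTC1 had 579 ± 34.7, PTC2 had 518 ± 32.6 and LD had 602 ± 12.4. It rose by 0.43, 0.27 and 0.49, of which the rise in PTC2 was 0.14 with no call relative to the nearest regions. Foxk1 and Foxk2 are repressors that link nutrient supply to autophagy and glycolysis. Foxk1 fell by 0.27 in PTC1, 0.24 in PTC2 and 0.30 in LD, from 1684 ± 98.6 counts in WT, and the PTC2 call was lost without PTC2 replicate 3 (-0.18). Relative to the nearest regions the falls of Foxk1 were 0.26, 0.22 and 0.17, the last with no call. Foxk2 rose by 0.25 in PTC1, from 1028 ± 49.3 to 1221 ± 103, and fell by 0.55 in PTC2, to 702 ± 29.1. The changes of Foxk2 were 0.06 in both lines relative to the nearest regions, and 4 of the 6 regions within 100 kb were lower in PTC2.

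The FOXN genes differed from one another. Foxn4, a factor of retinal and spinal progenitors, held 421, 418 and 456 counts in WT (chr5:114269652-114270473), 323, 270 and 326 in PTC1, 210, 249 and 221 in PTC2 and 377, 335 and 359 in LD. WT lay above and PTC2 below all other libraries. The falls were 0.50, 0.93 and 0.27 (each ± 0.10), of which that in LD was not called without WT replicate 3 (-0.23), LD replicate 2 (-0.23) or LD replicate 3 (-0.28), nor relative to the nearest regions (-0.19). Foxn3, a checkpoint repressor, rose from 737 ± 59.9 in WT to 1080 ± 36.2 in PTC2 and 1044 ± 70.4 in LD, by 0.55 and 0.50, and its 746 ± 59.2 in PTC1 overlapped WT. Within 100 kb of Foxn3, 15 of 20 regions were higher in PTC2 and 16 in LD. Relative to the nearest regions the Foxn3 start was nevertheless called higher in all 3 lines. Foxn1, the factor of thymic epithelium, rose by 0.50 in PTC2, to 667 ± 13.3 from 475 ± 67.0, and by 0.31 in PTC1, a call that was lost without WT replicate 1 (0.19) and relative to the nearest regions (0.04). Foxn2, with the highest mean count of the 38 start site regions, held 4467 ± 211 counts in WT, then 4981 ± 199 counts in PTC1, 4991 ± 110 counts in PTC2 and 3926 ± 12.0 in LD. It rose by 0.16 in both premature stop lines and fell by 0.19 in LD, while under cyclic loess scaling the LD change was 0.01 and relative to the nearest regions that in PTC1 was 0.03, both with no call.

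The FOXO genes, which insulin signalling keeps out of the nucleus through Akt, ranged from Foxo1 and Foxo3, whose group means had the smallest ranges of the 38 genes (0.07 and 0.15 on the log2 scale), to Foxo6 and Foxo4, which changed in some lines. Foxo1 (chr3:52267703-52270754) held 2158, 2282 and 2265 counts in WT, 2167, 2277 and 2272 in PTC1, 2338, 2015 and 2045 in PTC2 and 2227, 2100 and 2060 in LD. The groups overlapped, and the changes were 0.00 (95% interval of the fit -0.12 to 0.12), -0.07 and -0.07, each with an SE of 0.06. Relative to the nearest regions Foxo1 stood at -0.66 in PTC1, where 9 of the 14 regions within 100 kb were higher. Foxo3 held 3912 ± 40.9 counts in WT and 4196 ± 93.6 in PTC1, against 4144 ± 120 in PTC2 and 3784 ± 117 in LD. Its rise of 0.10 in PTC1 was called, and when 1 library was left out it remained so only without PTC2 replicate 1, LD replicate 1 or LD replicate 2, with values from 0.08 to 0.11 over all 12 libraries left out in turn. Foxo6, which is mainly known from brain, held 715, 847 and 720 counts in WT (chr4:120287489-120288225), 1055, 1099 and 1085 in PTC1, 1267, 1469 and 1408 in PTC2 and 826, 691 and 753 in LD. The premature stop lines lay above WT and LD, which overlapped each other, with rises of 0.51 ± 0.08 in PTC1 and 0.86 ± 0.08 in PTC2 (adjusted p = 1.0e-10) and a change of -0.01 in LD. Foxo4, on the X chromosome (chrX:101253773-101255196), held 906 ± 13.5 counts in WT and fell by 0.85 in LD, to 429, 514 and 576. Of the 6 regions within 100 kb of Foxo4, 5 were lower in LD, and relative to the nearest regions its change was -0.12 with no call. Its fall of 0.22 in PTC2 was -0.07 with no call relative to the nearest regions, and not called without WT replicate 1 (-0.21), WT replicate 2 (-0.21) or PTC2 replicate 2 (-0.19).

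Foxp2, a repressor of lung and brain development known in humans for its role in speech, closed in PTC1. At its start site region (chr6:14900178-14901912) WT held 1339, 1270 and 1342 counts, PTC1 90, 75 and 114, PTC2 1712, 1397 and 1513, and LD 1060, 874 and 945. PTC1 lay far below all other libraries and LD between PTC1 and WT. The change was -3.83 ± 0.10 in PTC1 (adjusted p = 1.8e-22), -0.46 in LD and 0.22 in PTC2, the last with no call. The region shared its fall with its surroundings: of 17 regions between 10 and 400 kb away, 15 were lower and 0 higher in PTC1, with a median change of -2.55. Relative to the 100 nearest regions the Foxp2 change was still -3.28 in PTC1 but -0.01 in LD. Foxp1, a repressor in lung, heart and B cells, held 3194 ± 56.5 counts in WT, 3194 ± 188 in PTC1 and 3442 ± 116 in PTC2 and fell to 1983 ± 109 in LD, by 0.69 ± 0.05 (adjusted p = 5.5e-12). In LD 39 of the 64 regions within 100 kb of Foxp1 were lower and 3 higher, and relative to the nearest regions its change was -0.11 with no call. Foxp4, which acts with Foxp1 and Foxp2, held 3944 ± 169 in WT and fell by 0.17 in LD, to 3498 ± 238, not called without WT replicate 2 (-0.14) or LD replicate 2 (-0.12), and under cyclic loess scaling the change was 0.01. Foxs1 rose by 0.32 in PTC2 and 0.46 in LD, from 543 ± 33.2 counts to 681 ± 85.97 and 748 ± 56.9.

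Other regions of the 19 genes that had them rose more often than they fell. Of 25, 13 were higher and 6 lower in PTC1. The counts were 15 and 2 in PTC2, and 11 and 1 in LD. Of the 4092 other regions of all named genes, 1099 were higher and 1358 lower in PTC1. Those counts were 1212 and 1067 in PTC2, and 796 and 1000 in LD. The shares called in either direction, 76.0%, 68.0% and 48.0%, compare with 60.0%, 55.7% and 43.9% of the other regions of all named genes. The median change was 0.24, 0.36 and 0.23, against -0.02, 0.06 and -0.01 over all such regions. The other regions of 1 gene lie close together and are not independent. In PTC1 9 of the 25 had the same call as the start of their gene and 4 the opposite call, at Foxc1, Foxm1 and Sox8. In PTC2 and in LD 15 and 9 had the same call and 0 the opposite. How often other regions and starts shared a call over all genes was not counted. Beside those of Foxd1 and Sox2, the largest rise was in Foxn3, at chr12:99561232-99561681, from 52, 43 and 59 counts in WT to 109, 80 and 84 in PTC1, 208, 228 and 240 in PTC2 and 131, 184 and 120 in LD. All mutant libraries lay above WT, and the changes were 0.81, 2.12 and 1.47. A region of Foxa1 (chr12:57551558-57551810) rose in all 3 lines from 15.7 ± 5.51 counts, by 1.75, 1.36 and 1.17. A further region of Foxj1 (chr11:116330225-116330422) rose by 1.87 in PTC1 and 1.31 in PTC2, from 17.7 ± 6.11 counts. The region of Foxm1 that fell in PTC1 (-0.57) held 110, 87 and 47 counts there against 115, 124 and 104 in WT, with PTC1 replicate 3 lowest. It was not called without that library (-0.22) or without WT replicate 2 (-0.51).

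**Figure D3:**
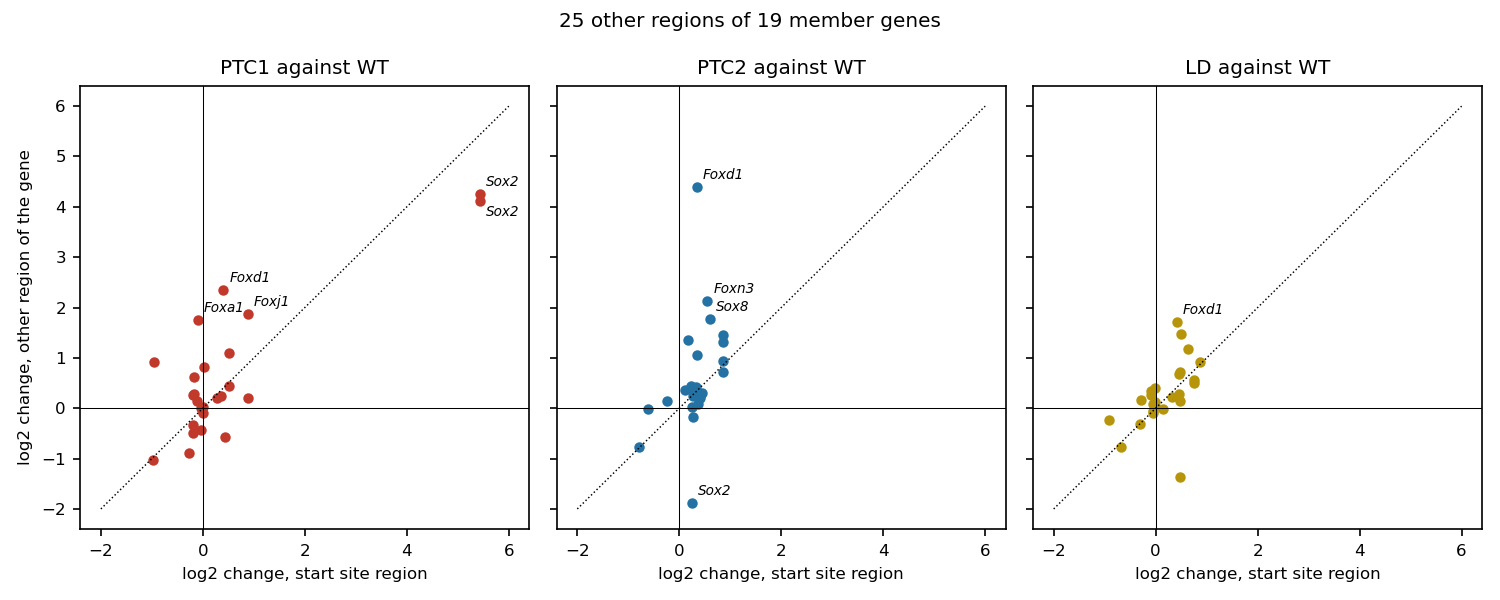
Log2 change from WT of the 25 other regions (vertical axis) against that of the start site region of the same gene (horizontal axis) in PTC1, PTC2 and LD. Each point is 1 region, the dotted line marks equal change, and regions with a change of 1.6 or more in size are named; the Foxd1 region lies at 2.34, 4.40 and 1.71 while its start stays between 0.34 and 0.41.

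The premature stop lines were also compared with LD, which makes no Actg1 mRNA. In the mean of PTC1 and PTC2 against LD, 15 start site regions were higher and 10 lower, against 45.2% and 21.7% of all named genes, and 5 changes reached 1, against 9.72%. The premature stop lines were both above LD, with no overlap, at Foxb2 (0.90), Foxo4 (0.76), Foxp1 (0.74), Foxo6 (0.69), Foxj2 (0.36), Foxn1 (0.36), Foxn2 (0.34) and Foxo3 (0.14, but -0.09 under cyclic loess scaling). They were both below LD at Foxa2 (-1.74), Foxa1 (-0.60) and Foxn4 (-0.44). Foxb2, Foxo6 and Foxn1 rose in both premature stop lines, were not called in LD and were still called against LD relative to the nearest regions, at 1.09, 0.55 and 0.22. The values for Foxj2, Foxo4 and Foxp1 relative to the nearest regions were -0.05, 0.08 and 0.17. For Sox2 (2.35), Foxp2 (-1.34), Sox11 (-1.18) and Sox8 (-1.05) the mean of both lines hides opposite or single changes, since PTC1 and PTC2 lay on different sides of LD or 1 of them overlapped it. Of the 25 other regions 11 were higher and 7 lower against LD, and 61.5% of all other regions were called. Among the 4092 other regions of all named genes 1301 were higher and 1216 lower.

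PTC1 and PTC2 differed from each other at 21 of the 38 start site regions. PTC1 was higher at 6 and lower at 15, against 21.1% and 33.2% of all named genes, and 5 differences reached 1, against 11.0%. The largest were Sox2 (5.19), Foxp2 (-4.05), Sox11 (-3.22), Sox8 (-1.55) and Foxf1 (-1.28), all called relative to the nearest regions too, at 3.80, -3.68, -3.13, -1.59 and -1.16. The differences at Foxk2 (0.80), Foxc1 (-0.59) and Foxf2 (-0.56) were 0.00, -0.02 and 0.02 relative to the nearest regions. Of the other regions 4 were higher and 14 lower in PTC1 than in PTC2, where 60.5% of all other regions were called in either direction. Among the 4092 other regions of all named genes 1036 were higher and 1438 lower.

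Genes that SOX and forkhead factors work with were read at their own start site regions, as lists chosen from general knowledge. Over all named genes 33.3% of start site regions rose and 28.5% fell in PTC1. The shares were 37.4% and 16.3% in PTC2, and 16.9% and 29.5% in LD. Counts in all the lists that follow are to be read beside these shares. Of 30 SOX partners and targets 18 had a region, and 6 rose and 6 fell in PTC1, 7 and 3 in PTC2, and 2 and 3 in LD, with median changes of 0.08, 0.19 and 0.05 beside 0.03, 0.10 and -0.05 over all start site regions. Hapln1, a cartilage matrix gene, fell by 2.95 in PTC1, from a mean of 111 to 14.3 counts, and Comp, another, rose by 1.03 in PTC2 (0.62 relative to the nearest regions). Mitf, a Sox10 target in melanocytes, fell by 0.91 in LD, where its change was -0.36 relative to the nearest regions. Of 13 Wnt genes 11 had a region, with 3 up and 6 down in PTC1, 3 and 3 in PTC2, and 4 and 3 in LD. Among them Lef1, the nuclear Wnt effector, had means of 112 in WT and 1221 in PTC1, a change of 3.44. It fell to 37.7 in PTC2, a change of -1.55, and rose to 335 in LD, a change of 1.56. Notum, on the same list, went from 301 counts in WT to 69.7 in PTC1, a change of -2.11. Its changes were -1.11 in PTC2 (-0.62 relative to the nearest regions) and 0.55 in LD. Of 27 FOXO regulators 24 had a region, and 6 rose and 8 fell in PTC1, 10 and 4 in PTC2, and 2 and 10 in LD. Insr, the insulin receptor, rose by 0.50 in PTC2, and Mapk8, the kinase JNK1, fell by 0.42 in LD (-0.23 relative to the nearest regions).

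Of 27 FOXO targets 19 had a region, with 9 up and 5 down in PTC1, 9 and 2 in PTC2, and 4 and 7 in LD. Pdk4, which holds back glucose oxidation and is a classical FOXO1 target, rose in all 3 lines, from 269 counts to 668, 476 and 536, by 1.31, 0.82 and 0.99, the last 1.64 relative to the nearest regions. Ccng2, on the same list, fell in all 3 lines, by 0.33, 0.36 and 0.46. Relative to the nearest regions its falls were 0.38, 0.21 and 0.22, all called. The Foxo1 start itself was not called in those lines. Of 20 FOXM1 targets 18 had a region, with 4 up and 8 down in PTC1, 6 and 2 in PTC2, and 4 and 3 in LD. The centromere gene Cenpf fell by 0.54 in PTC1 and the topoisomerase gene Top2a rose by 0.48 in PTC2 (0.21 relative to the nearest regions). The region nearest the Foxm1 start, which lies inside the gene, rose in all 3 lines, in PTC2 with no call relative to the nearest regions. Of 31 partners of mesenchymal forkhead genes 25 had a region, with 4 up and 11 down in PTC1, 9 and 5 in PTC2, and 8 and 7 in LD. In PTC1 the homeobox gene Six2 rose from 37.0 to 899 counts (4.71). In PTC2 Meox1, a somite homeobox gene, rose from 19 to 113 (2.61), and in LD the hedgehog receptor gene Ptch1 rose from 102 to 221 (1.15). No list was tested as a set.

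Markers of other cell types were read beside the members. Fibroblast markers had a region at 16 of 17 genes, with Dcn at none, and 15 had a mean of 100 or more. Their summed counts were 25485 to 26180 in WT, 23153 to 24110 in PTC1, 26503 to 28937 in PTC2 and 25740 to 27781 in LD. Neural markers, which bear on Sox2 and Sox11, had a region at 8 of 13 genes, with Dcx, Neurod1, Olig2 and Pax6 among those at none. Their sums ran from 3060 to 3275 in WT, 2986 to 3121 in PTC1, 3005 to 3272 in PTC2 and 3031 to 3283 in LD, which overlap. In PTC1 3 of the 8 rose and 3 fell, among them the synaptic gene Syt1, which rose by 3.85, from 32.7 to 464 counts, and the neural progenitor gene Nes, which fell by 0.76. Pluripotency markers had a region at 3 of 9 genes, with Pou5f1, Zfp42, Esrrb, Lin28a, Utf1 and Dppa5a at none, and sums of 4226 to 4433 in WT, 4094 to 4476 in PTC1, 5010 to 5248 in PTC2 and 3821 to 4285 in LD. Nanog rose by 1.46 in PTC1 and 1.47 in PTC2. The other markers with a region, Klf4 and Tdgf1, fell in PTC1, by 0.26 and 0.57 (-0.15, and -0.36 with no call, relative to the nearest regions), and neither was called in PTC2. Cartilage markers had a region at 5 of 8 genes, with Acan, Col9a1 and Prg4 at none, and sums of 743 to 937 in WT, 877 to 1183 in PTC1, 1519 to 1641 in PTC2 and 873 to 1007 in LD. Of the 5, 3 rose and 1 fell in PTC1, 4 rose and 0 fell in PTC2, and 0 were called in LD. Comp went from 570 to 1162 counts in PTC2 (1.03, or 0.62 relative to the nearest regions). Hapln1 was the marker that fell in PTC1, from 111 to 14.3 counts. Blood markers had a region at 4 of 8 genes, with Cd3e, Gata1 and Itgam among those at none, and sums of 999 to 1096 in WT, 1038 to 1124 in PTC1, 927 to 947 in PTC2 and 1073 to 1153 in LD. In bulk samples a change in the share of cells and a change within each cell cannot be told apart, and the part of these markers in the members' changes was not tested.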

How the data were processed

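ATAC-seq was run on 12 libraries of 25000 NIH/3T3 cells each, transposed for 30 min at 37 °C, per the labels' protocols. The deposited table gives a score per region and library, which by its values is a read count that the authors scaled by 1 factor per library and rounded to whole numbers, beside the listed gene, its distance and, as a fraction from the deposited columns, how much of a region lies in the gene. Per the submitters' processing notes the build was mm10 and the tools named, without their roles, were Picard 2.25.5, STAR 2.7.10a, DESeq2 1.30.1 and Trimmomatic 0.39. How peaks were called, whether cuts were shifted for Tn5 and whether region starts count from 0 or 1 is not given in the sources used here. Coordinates are printed as deposited. Gaps and doubled frequencies in the whole numbers of each library gave the estimated reads.

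The planned count test needed raw counts, so the planned fallback was used: limma 3.58.1 (R 4.3.3) on log2 of the value plus a pseudocount of 1, with a mean per group over all 12 libraries and empirical Bayes with a trend. A mean of at least 5 was required, which 81985 regions met, and all 63 regions of the 38 genes passed it. P-values were adjusted over all 81985. The fit was tested on simulated libraries. Tables were handled in Python 3.11.15 with pandas 2.3.3 and numpy 2.4.6. The members, the lists of related and marker genes and the tests were chosen with earlier results of these data known.

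Genes were named by a rule: per comparison the 6 largest rises and falls among called start site regions whose groups do not overlap and whose higher group has a mean of at least 20, 3 of each among other regions, the highest mean of each subfamily, the 6 smallest ranges, and up to 4 genes per list. Genes outside it complete the subfamilies or were named after their values were seen. Some genes of the lists are not reported here. Alternatives were a pseudocount of 10, no filter or a mean of 20, scaling to the same median, cyclic loess, centring by chromosome or on the 100 nearest regions, only the groups compared, a replicate block, no trend, leaving out each library, and the highest region of each gene as its start.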

Additional observations from a re-analysis of the deposited data

Results flagged for a closer look

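For 6 genes PTC1 and PTC2 were called in opposite directions against WT. Since these genes were picked for opposite calls against the same WT libraries, that the difference between the lines was called by limma as well adds no support, and its size is given as a description. The PTC1 minus PTC2 difference on the log2 scale was -3.22 for Sox11, -1.55 for Sox8, 0.80 for Foxk2, -0.59 for Foxc1, -0.56 for Foxf2 and -0.44 for Sox6. Relative to the 100 nearest regions the differences were -3.13 for Sox11, -1.59 for Sox8 and -0.29 for Sox6, and 0.00, -0.02 and 0.02 for Foxk2, Foxc1 and Foxf2.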

How the results depend on the processing

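With few libraries and 1 line per allele, small changes were the least secure, and the cause of the shifts below was not tested. Scaling to the same median moved the median change of all regions from 0.02 to 0.11 in PTC2, from 0.01 to -0.06 in LD, from 0.00 to 0.11 in the premature stop lines against LD and from 0.00 to -0.10 in PTC1 against PTC2. In PTC1 14 starts were higher, 9 with centring by chromosome and 7 on the nearest regions. In PTC2 8 were lower, 5 at the same median and 5 without a trend. In LD 10 were lower and 6 on the nearest regions. Under cyclic loess 16 rather than 10 were lower in the premature stop lines than in LD, and 11 rather than 6 higher in PTC1 than in PTC2. Of the other regions, 2 were lower in PTC2 and 1 without a trend, 1 was lower in LD, 2 at the same median and 3 with centring by chromosome, and 7 were lower against LD, 3 at the same median and 4 under cyclic loess. With 1 library left out these last 3 counts ran from 1 to 2, from 1 to 2 and from 3 to 7. The counts of all other comparisons stayed within 1.5 times.

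Of 193 named results 66 changed their call under at least 1 setting and 22 their sign. On the nearest regions the sign turned for Foxc1 (0.039), Foxc2 (-0.34), Foxf2 (0.053) and Sox9 (-0.038) in PTC1, for Foxc2 (-0.52), Foxk2 (0.063) and Foxl1 (-0.29) in PTC2, for Foxf1 (-0.068), Foxj2 (-0.053) and Foxk2 (0.053) against LD, and for Foxf2 (0.018) and Sox9 (-0.11) in PTC1 against PTC2. With centring by chromosome it turned for Foxn2 (-0.054) and Foxo3 (-0.021) in PTC1, Foxo4 (0.10) in PTC2, Foxj2 (-0.13) and the second Sox18 region (0.025) against LD, and Foxa1 (0.077) in PTC1 against PTC2. Under cyclic loess it turned for Foxn2 (0.0066) and Foxp4 (0.0076) in LD and for Foxc1 (-0.0038), Foxo3 (-0.087) and Foxp4 (-0.089) against LD.

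Libraries with the same number deviated together only weakly, with r of -0.00 to 0.04 and a median of 0.014 over 18 pairs, across regions. The 36 pairs with different numbers had a median r of -0.0055. The labels do not say what the numbers mark, and the main fit does not pair the libraries. With a replicate block the count in PTC2 went from 19 to 20 higher starts and in PTC1 from 11 to 12 lower, and no named call changed.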
